A study of Mus musculus with 4 samples.

Results

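Counts of 8 hnRNP genes, of Phykpl, which overlaps Hnrnpab on the other strand, and of Cbx3, the neighbour of Hnrnpa2b1, were examined in T-helper 2 cells, a subset of CD4 T cells known for making interleukin-4. The 10 genes were picked by name from 50600 genes in the tables, with their counts already known, so their levels are a description, and no call of their level is used as support. To these were added, by coordinates, the 4 other genes whose exons share bases with a member on the opposite strand: Cox20, Rmi1, Gm17092 and Gm44702. RNA came from primary C57BL/6NJ mouse cells and was sequenced in 4 libraries, numbered as biological replicates 1 to 4. These form 1 group, so no untreated cells, other cell type or other time could be compared. All libraries carry 1 shared donor record, with age given as unknown, and nothing in the labels says that the replicates were different animals. A p-value therefore measures only the spread between these libraries, which may be technical.

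Heterogeneous nuclear ribonucleoproteins (hnRNPs) are abundant proteins that coat newly made RNA in the nucleus and steer its splicing, export, stability and translation. Most bind RNA through RNA recognition motifs, while hnRNP K binds C-rich RNA through KH domains. In T cells the family is known for its part in alternative splicing of the CD45 phosphatase gene Ptprc, in which hnRNP L and its relative hnRNPLL act. Phykpl is unrelated: it encodes an enzyme that breaks down phosphohydroxylysine. Cbx3 encodes the heterochromatin protein HP1 gamma.

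Each library held 1804217 to 2711948 counts. A count of 0 allows up to 3 counts, which were 1.11 to 1.66 CPM (counts scaled to the library total). The 8189 genes (of 50600) that overlap an opposite-strand gene in their exons held 93.8% ± 1.65 of the counts (SD, n = 4). A count is therefore given here as that of a feature on the strand selected in counting, and is not read as expression of the gene. Among marker genes on that strand, all 7 of the T cell list and all 4 of the Th2 list had a count in each library. Their sums were 45 to 206 and 62 to 169 counts, with the lowest sum of each in replicate 4. The Th2 genes differed: Il4 had 24, 21, 25 and 26 counts in replicates 1 to 4 and Gata3 20, 47, 44 and 22. Il4ra had 31, 39, 19 and 7, and Ccr4 32, 62, 38 and 7, so in raw counts only these were lowest in replicate 4. Scaled to the library totals, Gata3 was lowest there too, by a small margin. Of B cell markers, Cd79a had 9, 15, 12 and 12 counts and Ms4a1 had 0 in each library. Other markers at 0 in each library were Adgre1 of macrophages, Klrb1c and Ncr1 of NK cells, Cd8a of CD8 T cells and Hbb-bs of erythroid cells. The macrophage list summed to 999 to 1039 counts, nearly all in Csf1r, with 983 to 1026. The lists of CD8 T and erythroid cells summed to 3 to 4 and 31 to 39 counts. CT010467.1, annotated as ribosomal RNA, took 1.02%, 1.14%, 28.6% and 14.4% of the counts in replicates 1 to 4, which lowers the CPM of all other genes in replicates 3 and 4.

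Sequence upstream of 5 hnRNP genes is shown because, among the 10 genes, Hnrnpa1, Hnrnpa2b1 and Hnrnpc had the lowest values in replicate 4 relative to the other libraries, and Hnrnpab and Hnrnpd the highest, as given further on. Each line is the 250 bases before the RefSeq start, from RefSeq on GRCm38.p6, read 5′ to 3′ on the strand of the gene. Capitals mark matches on either strand to CCAAT, the CCAAT box, GGGCGG, the GC box, TATAAA, the TATA box, and GCCATNTT, the YY1 motif.
Hnrnpa1 (chr15:103240147-103240396, + strand): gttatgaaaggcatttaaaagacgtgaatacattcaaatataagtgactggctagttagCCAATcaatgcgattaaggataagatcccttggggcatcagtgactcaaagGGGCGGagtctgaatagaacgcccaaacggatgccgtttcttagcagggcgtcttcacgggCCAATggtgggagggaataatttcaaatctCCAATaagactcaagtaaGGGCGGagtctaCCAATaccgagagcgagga
Hnrnpa2b1 (chr6:51469895-51470144, - strand): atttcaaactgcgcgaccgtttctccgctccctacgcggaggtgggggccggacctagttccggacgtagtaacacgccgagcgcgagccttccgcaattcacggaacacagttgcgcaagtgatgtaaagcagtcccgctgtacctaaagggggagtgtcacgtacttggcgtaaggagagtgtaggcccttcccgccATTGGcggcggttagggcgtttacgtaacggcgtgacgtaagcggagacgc
Hnrnpc (chr14:52104022-52104271, - strand): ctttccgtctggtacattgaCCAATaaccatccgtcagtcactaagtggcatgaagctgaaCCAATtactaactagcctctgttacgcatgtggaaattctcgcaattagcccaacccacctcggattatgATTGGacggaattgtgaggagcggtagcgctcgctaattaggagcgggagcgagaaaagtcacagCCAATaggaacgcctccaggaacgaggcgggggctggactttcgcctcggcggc
Hnrnpab (chr11:51606882-51607131, - strand): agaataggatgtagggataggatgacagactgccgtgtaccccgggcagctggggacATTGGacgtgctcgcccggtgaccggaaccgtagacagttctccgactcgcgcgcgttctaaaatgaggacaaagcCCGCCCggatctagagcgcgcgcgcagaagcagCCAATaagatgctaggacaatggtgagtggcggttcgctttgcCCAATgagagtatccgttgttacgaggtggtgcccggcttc
Hnrnpd (chr5:99978939-99979188, - strand): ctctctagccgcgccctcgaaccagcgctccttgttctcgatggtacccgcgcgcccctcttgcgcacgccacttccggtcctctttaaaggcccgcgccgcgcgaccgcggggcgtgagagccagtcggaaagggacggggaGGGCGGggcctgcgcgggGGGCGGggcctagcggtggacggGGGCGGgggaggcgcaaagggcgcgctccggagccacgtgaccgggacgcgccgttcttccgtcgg

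CCAAT was found 4 times upstream of Hnrnpa1, 4 times upstream of Hnrnpc, 3 times upstream of Hnrnpab and 1 time upstream of Hnrnpa2b1, and not upstream of Hnrnpd. Over 32851 promoter windows of this length, 33.9% held it. GGGCGG was found 3 times upstream of Hnrnpd, 2 times upstream of Hnrnpa1 and 1 time upstream of Hnrnpab, against 32.7% of all windows with a match. TATAAA and GCCATNTT were found in none of the 5 windows, against 12.4% and 3.91% of all windows. The share of G and C was 74.4% upstream of Hnrnpd, 59.6% for Hnrnpa2b1, 58.4% for Hnrnpab, 52.8% for Hnrnpc and 46.0% for Hnrnpa1. A match describes the letters only.

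Phykpl held far more counts than Hnrnpab, the gene it overlaps. Phykpl, on the plus strand of chromosome 11 (51584757 to 51604489), had 51364, 49881, 55653 and 50552 counts in replicates 1 to 4. Hnrnpab, on the minus strand (51600100 to 51606847), encodes an RNA-binding protein with RNA recognition motifs and had 480, 512, 598 and 995 counts. The values do not overlap: Phykpl was 50.8-fold to 107-fold above Hnrnpab, and the log2 ratio of the counts, Phykpl over Hnrnpab, was 6.39 ± 0.49 (SD, n = 4), above 0 in 4 of 4 libraries. Per exon base the ratio was 4.59 ± 0.49 on the log2 scale. By mean count over all genes, Phykpl had rank 2 and Hnrnpab rank 612.

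The pair is convergent, so that the end of each gene lies over the other. They share 809 exon bases, which are 8.34% of the exon length of Phykpl and 29.1% of that of Hnrnpab. Of these, 499 bases (51600569 to 51601067) and 220 bases (51601109 to 51601328) lie in the last of the 7 exon blocks of Hnrnpab, outside its coding sequence. In Phykpl these stretches belong to exon blocks 9 and 10 of 11, where 54 and 47 of their bases are coding. The remaining 90 bases (51604400 to 51604489) are coding in exon block 5 of Hnrnpab and form the end of Phykpl, where they are untranslated. Set over the shared bases alone, the counts of Phykpl would be 64.1 per base and library, and those of Hnrnpab 0.799. The tables give 1 value per gene, so counts inside and outside the shared bases could not be told apart.

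**Figure D1:**
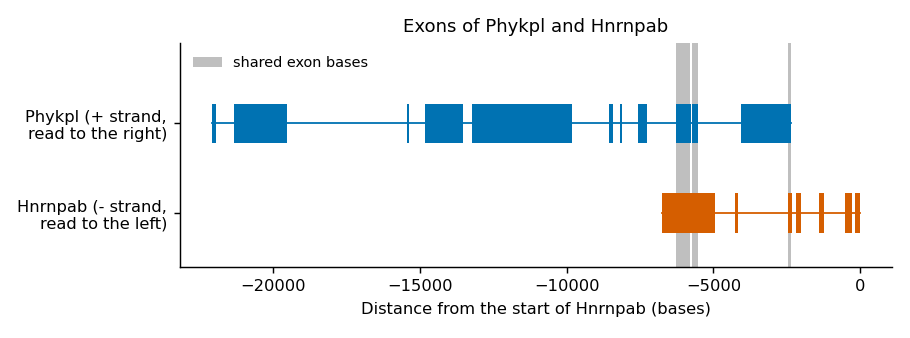
Exons of Phykpl (upper row) and Hnrnpab (lower row) by distance in bases from the start of Hnrnpab, with the 809 shared exon bases shaded in grey. The ends of both genes face each other, and most of the shared bases lie in the last exon block of Hnrnpab.

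The spread of the pair over the libraries differed in size. Phykpl varied little: its level was 3835 ± 419 TPM (counts per exon base, scaled to the same total in each library; SD, n = 4), with values of 4300, 4077, 3458 and 3504. Hnrnpab was at 140, 146, 130 and 240 TPM, or 164 ± 51.4, and replicate 4 stood above the other libraries. A test of each gene's spread against the trend over all genes (edgeR quasi-likelihood, Benjamini-Hochberg) gave an adjusted p of 0.997 for Phykpl and 0.664 for Hnrnpab, whose unadjusted p was 0.0182. The 3 genes nearest to Phykpl in log2 CPM over the 4 libraries were mt-Nd6, Gm20721 and Gm45552, at Euclidean distances of 0.848, 2.03 and 2.26. The 3 nearest to Hnrnpab were Gm26884, Gm9905 and Pibf1, at 0.0685, 0.236 and 0.290. Gm26884 had 469, 524, 594 and 962 counts. It was picked for its nearness to Hnrnpab in these same libraries, so its high value in replicate 4 follows from that choice. Each of these 6 genes overlaps exons of the opposite strand, by 14 bases for mt-Nd6 and up to 1469 for Gm20721. Genes with such an overlap held 93.8% of all counts, so nothing particular to the 6 is read from it.

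Hnrnpa1 and Hnrnpa2b1 encode the classic core hnRNP proteins of splicing repression, and both had their lowest counts in replicate 4. Hnrnpa1 (chromosome 15, 103240432 to 103244955, plus strand) had 92, 134, 123 and 9 counts, or 34.0 ± 22.0 TPM (SD, n = 4). Relative to the mean CPM of replicates 1 to 3, replicate 4 was 13.6-fold lower. Hnrnpa2b1 (chromosome 6, 51460932 to 51469894, minus strand) had 163, 172, 166 and 26 counts, or 14.7 ± 8.38 TPM, and was 6.81-fold lower in replicate 4. Hnrnpc (chromosome 14, 52073380 to 52104028, minus strand), whose protein binds uridine tracts, had 53, 87, 76 and 10 counts, or 14.3 ± 8.97 TPM, and was 7.56-fold lower. For each of these 3 genes replicate 4 lay below all of replicates 1 to 3. In CPM that held for 42.9% of all 5463 genes with 10 counts in each of replicates 1 to 3. Among those with no exon overlap on the opposite strand it held for 70.5%. None of the 3 overlaps exons of the opposite strand. Fragments that align to several places, as those of processed pseudogenes of Hnrnpa1 may, make its count uncertain, and the pseudogenes Hnrnpa1l2-ps and Hnrnpa1l2-ps2 had 1 and 0 counts over all libraries.

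Both Hnrnpa genes stand head to head with a gene of a heterochromatin protein. Cbx3 (chromosome 6, 51470360 to 51483704, plus strand) starts 466 bases from the start of Hnrnpa2b1 and had 11, 14, 24 and 13 counts, or 1.80 ± 0.44 TPM, the lowest level of the 10 genes. In counts its replicate 4 lay within the range of the others, and it was 0.30 below their mean on the log2 CPM scale, where it was the lowest by a small margin. Hnrnpa2b1 lay 2.72 below on the same scale, and its replicate 4 was the lowest in counts too. Cbx5, the HP1 alpha gene, starts 616 bases from Hnrnpa1 and shares no exon bases with it. Cbx5 had 36, 55, 41 and 4 counts, with replicate 4 the lowest, 11.7-fold below the mean CPM of the others.

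Hnrnpl and Hnrnpk were lowest in replicate 4 as well, to unequal extents. Hnrnpl (chromosome 7, 28808541 to 28822266, plus strand), a regulator of CD45 splicing, had 82, 88, 62 and 26 counts, or 8.03 ± 4.19 TPM (SD, n = 4), and was 3.23-fold lower in replicate 4. Gm44702, an antisense gene within it that shares 32 exon bases, had 15, 10, 9 and 22 counts, highest in replicate 4. The log2 ratio of Gm44702 over Hnrnpl was -2.11 ± 1.28 in counts but 1.16 ± 1.29 in TPM, so its direction depended on scaling by exon length. Hnrnpk (chromosome 13, 58391142 to 58403343, minus strand), which binds C-rich RNA, had 173, 197, 202 and 129 counts, or 22.4 ± 5.3 TPM, and was 1.55-fold lower. Rmi1, a partner of the BLM helicase, had 14, 14, 23 and 7 counts. The 53 exon bases that it shares with Hnrnpk lie at its own start, in exon block 2 of 15 of Hnrnpk. Rmi1 over Hnrnpk was -3.64 ± 0.42 in log2 counts, below 0 in 4 of 4 libraries.

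Hnrnpd and the antisense gene over its first exon were both highest in replicate 4. Hnrnpd (chromosome 5, 99955935 to 99978938, minus strand), known as AUF1 and for binding AU-rich elements that control mRNA decay, had 126, 143, 195 and 262 counts, or 17.3 ± 4.5 TPM (SD, n = 4). Gm17092 shares 385 exon bases with the first of the 10 exon blocks of Hnrnpd, 151 of them coding there, and these are 55.2% of the exon length of Gm17092. It had 2464, 2904, 3497 and 7115 counts. Gm17092 exceeded Hnrnpd 17.9-fold to 27.2-fold, and the log2 ratio was 4.39 ± 0.26 in counts and 7.78 ± 0.26 in TPM. In replicate 4 Gm17092 was 1.22 and Hnrnpd 0.72 above the mean of the other libraries on the log2 CPM scale. With 1 library set against 3, being apart means only that replicate 4 was the highest. The share of all genes highest in replicate 4 was not counted.

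Hnrnpu and the gene across its end had counts of like size. Hnrnpu (chromosome 1, 178321108 to 178337797, minus strand), which encodes scaffold attachment factor A, had 1136, 1224, 1366 and 1048 counts, or 73.7 ± 10.1 TPM (SD, n = 4). Cox20, an assembly factor of cytochrome c oxidase, shares 804 exon bases with the last of the 17 exon blocks of Hnrnpu, 91.1% of the exon length of Cox20. Cox20 had 1120, 791, 984 and 1117 counts. The log2 ratio of Cox20 over Hnrnpu was -0.26 ± 0.35 in counts, above 0 in 1 of 4 libraries, and 3.46 ± 0.35 per exon base. Replicate 4 was the lowest for Hnrnpu, 1.24-fold below the mean CPM of the others, and lay within their range for Cox20.

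The exact sign-flip permutation test over the 4 libraries, two-sided, gave p = 0.13 for the count ratios of Hnrnpab, Hnrnpk, Hnrnpd and Hnrnpl, the smallest value that 4 libraries allow. The same exact test gave p = 0.38 for Hnrnpu. Adjusted over the 5 ratios the exact p-values were 0.16 for each of the 4 genes and 0.38 for Hnrnpu, so none could pass 0.05. For the features opposite the 5 genes, Phykpl and Gm17092 held more counts than the hnRNP gene in each library. Rmi1 and Gm44702 held fewer counts, and Cox20 was not separated from Hnrnpu in counts. Per exon base the mean log2 ratios of Cox20 and Gm44702 over their hnRNP genes were above 0, at 3.46 and 1.16.

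**Figure D2:**
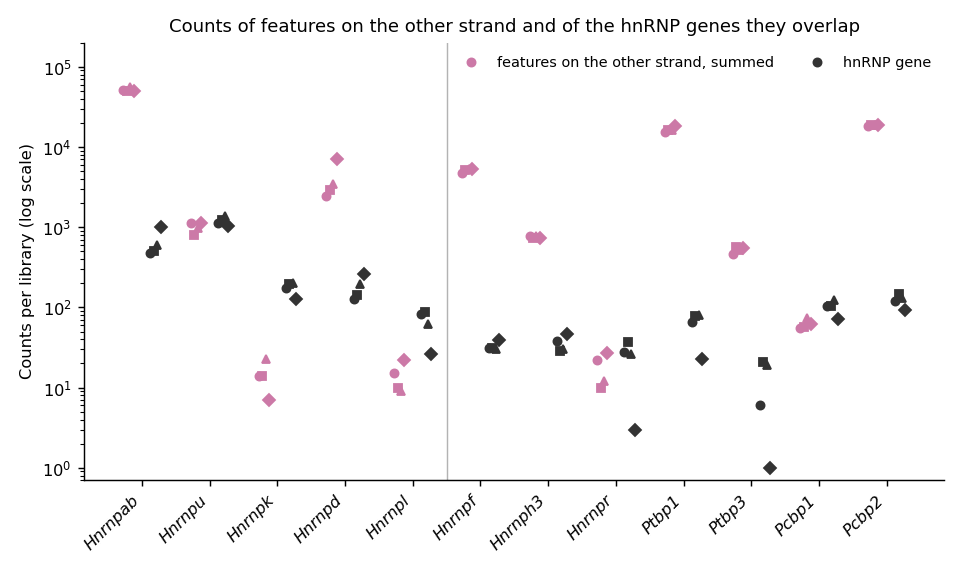
Counts per library on a log axis for features on the other strand, summed (pink, left), and for the hnRNP gene that they overlap (black, right). Circles, squares, triangles and diamonds are replicates 1 to 4, and genes right of the grey line belong to a wider hnRNP list. Phykpl lies at 49881 to 55653 counts above Hnrnpab at 480 to 995, while the points of Cox20 and Hnrnpu overlap.

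Levels of the 10 genes spanned from 3835 TPM for Phykpl to 1.80 TPM for Cbx3. In order of mean TPM they were Phykpl, Hnrnpab, Hnrnpu, Hnrnpa1, Hnrnpk, Hnrnpd, Hnrnpa2b1, Hnrnpc, Hnrnpl and Cbx3. The ranges over the libraries did not overlap for 4 neighbouring pairs, which were Phykpl and Hnrnpab, Hnrnpab and Hnrnpu, Hnrnpu and Hnrnpa1, and Hnrnpl and Cbx3. The 5 neighbours from Hnrnpa1 to Hnrnpl overlapped. Without replicate 4, 7 neighbouring pairs did not overlap. On CPM, which is not scaled by exon length, Hnrnpu at 570 ± 89.7 CPM stood above Hnrnpab at 306 ± 105. Against 1 TPM, 9 of the 10 genes were called above and 0 below, with Cbx3 not called (limma moderated one-sample test on log2(TPM + 0.1), adjusted p under 0.05). Over all 17203 genes with a count, 32.1% were called above and 26.6% below. Since the levels were known when the genes were chosen, nothing is read from that count.

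**Figure D3:**
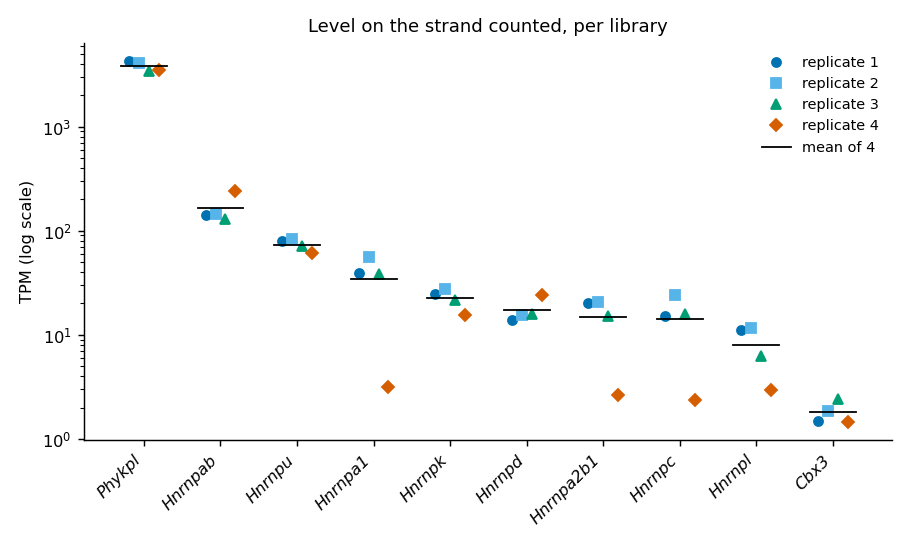
TPM on a log axis for the 10 genes in order of their mean, with 1 symbol for each replicate and a black line at the mean of 4. Replicate 4 lies far below the other points for Hnrnpa1, Hnrnpa2b1 and Hnrnpc, and above them for Hnrnpab and Hnrnpd.

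Replicate 4 was then set against the mean of the other 3 libraries for every gene that reached 10 counts in all 3 of those. That rule sets no limit on replicate 4, so it lets in genes that are low only there, among all genes as well. Of the 10 genes, 4 were more than 1 lower on the log2 CPM scale in replicate 4 (Hnrnpa1, Hnrnpa2b1, Hnrnpc and Hnrnpl), beside 28.0% of 5463 genes, and 0 were more than 1 higher, beside 2.16%. The median deviation was -0.46 for the 10 genes and -0.20 for all genes. Of the 6 genes with an exon overlap on the opposite strand 1 was lower, and of the 4 without one 3 were. Over all genes the same split gave 10.4% lower with an overlap and 55.9% without one. In replicates 1, 2 and 3, 0 of the 9 genes that could be scored were more than 1 lower, beside 1.21%, 0.917% and 5.48% of all genes. More than 1 higher were 1, 3 and 0 of them, beside 2.03%, 5.52% and 0.247%. Sums of the T cell markers were lowest in replicate 4 too, and the part of cell makeup or RNA quality in these values was not tested. Since a count is not read here as expression of the gene, whether transcript levels differed in replicate 4 was not tested. If they did, fewer cells with a transcript and less of it per cell cannot be told apart in these bulk samples.

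Scaling moved these values. Scaling by DESeq2 size factors put the median of all genes at 0.13 in place of -0.20, and then Hnrnpab and Hnrnpd were 1.19 and 1.06 higher in replicate 4, beside 5.11% of all genes more than 1 higher. The signs of Phykpl, Cbx3 and Hnrnpu, at -0.11, -0.30 and -0.30, turned to 0.23, 0.03 and 0.03 under it. Hnrnpa1, Hnrnpa2b1, Hnrnpc and Hnrnpl stayed more than 1 lower under each of the 4 scalings tried, beside 23.1% of all genes under DESeq2 size factors. Among genes past the expression filter of edgeR, 2 of 8 were more than 1 lower in replicate 4 and 0 higher, beside 462 (11%) and 114 (2.72%) of 4190. With a limit of 0.5, 5 of the 10 genes were lower and 2 higher, beside 36.6% and 8.33% of all genes.

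Spread between replicates was tested across 4190 genes that passed the expression filter of edgeR. Of 4 forms of this test that were run, the one reported called 0 genes, another called only CT010467.1, and none called any of the 10 genes. Hnrnpa1 and Hnrnpc did not pass it because of their low counts in replicate 4, and the other 8 genes did. None of the 8 was called, beside 0% of all genes tested, while 268 of 4190 genes had an unadjusted p under 0.05, among them Hnrnpa2b1 and Hnrnpab. Hnrnpa2b1 had the smallest p of the 8, with an adjusted p of 0.563 by edgeR. With no filter beyond a count above 0, edgeR called 4 of the 10 genes, beside 2.01% of 17203 genes. These were Hnrnpa1, with an adjusted p of 2.39e-07 by edgeR, Hnrnpa2b1 at 4.58e-06, Hnrnpab at 3.54e-05 and Hnrnpc at 0.00871. In that run 1 of the 20 genes of the wider hnRNP list described below was called, Hnrnpa3 at 0.00344. The 17203 genes include many with few counts, so their share is not that of genes with counts like those of the 10. DESeq2 marked 27 genes as dispersion outliers and limma-trend called 0, with none of the 10 genes among them. Without replicate 4, edgeR with its filter called 20 genes over the table and 0 of the 10.

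A wider list held 20 genes of hnRNP proteins and their close relatives. Of these, 14 were called above 1 TPM, 1 below and 5 neither, beside 32.1% and 26.6% of all genes (limma, adjusted p under 0.05). The median distance from 1 TPM on the log2(TPM + 0.1) scale was 2.85 for the list and -0.35 for all genes. The highest levels were those of the poly(C)-binding protein genes Pcbp1 and Pcbp2, at 39.3 ± 8.94 and 31.0 ± 8.10 TPM (SD, n = 4). Hnrnpm followed at 20.9 ± 4.8, Hnrnpul2 at 17.6 ± 4.31, Hnrnpa0 at 16.5 ± 3.3, Hnrnpa3 at 13.2 ± 7.38 and Hnrnpdl at 12.6 ± 5.64 TPM. Ptbp1, the polypyrimidine tract binding protein gene, was at 9.48 ± 4.32 TPM, Hnrnpll at 9.42 ± 2.08, Hnrnph3 at 8.21 ± 2.06, Raly at 7.78 ± 3.58 and Hnrnpf at 7.72 ± 1.21. Hnrnph1 was at 6.96 ± 3.53, Hnrnpul1 at 6.28 ± 3.03 and Syncrip at 2.45 ± 1.60 TPM, and Ptbp3 and Hnrnpr at 1.12 and 0.786 TPM. The other 3 genes, with a mean count under 10, were Hnrnph2, Rbmx and Ptbp2, and the one called below 1 TPM was Ptbp2, which is best known from neurons. The count of Hnrnpm is uncertain where it shares 1169 exon bases with March2 on its own strand, which had 0 to 6 counts.

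Features on the other strand were found for 7 of the 20 genes. Hnrnpf is crossed by 4933440N22Rik, with 1087, 1287, 1195 and 2051 counts, and by Gm43863, with 3723, 3848, 4137 and 3206, while Hnrnpf itself had 31, 31, 30 and 39. Ptbp1, with 65, 79, 81 and 23 counts, is crossed by E130317F20Rik, Gm17134 and Plppr3, whose mean counts were 3333, 6081 and 7220. Together they exceeded Ptbp1 204-fold at the least. Pcbp2, with 120, 147, 132 and 93 counts, lies opposite Gm26518 at 8880 ± 263 and Map3k12 at 9776 ± 410 counts. The log2 ratios of summed opposite counts over own counts were 8.21 ± 0.95 for Ptbp1, 7.28 ± 0.17 for Hnrnpf, 7.26 ± 0.29 for Pcbp2, 6.03 ± 1.80 for Ptbp3 and 4.42 ± 0.34 for Hnrnph3, each above 0 in 4 of 4 libraries. The features were 1700018M17Rik for Ptbp3 and Rufy2 for Hnrnph3. Ptbp3 itself had 6, 21, 19 and 1 counts, so the size of its ratio rests on few counts. For Pcbp1, with 1600020E01Rik at 61.8 ± 8.06 counts, the ratio was -0.68 ± 0.32, and for Hnrnpr, with Gm27022, it was -0.07 ± 2.12. By the exact sign-flip permutation test 6 of these 7 ratios reached p = 0.13, again the smallest possible, and Hnrnpr had p = 1.0.

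In the wider list, 16 genes reached 10 counts in replicates 1 to 3, and 8 were more than 1 lower in replicate 4, beside 28.0% of all genes. These were Hnrnpr at -3.18, Syncrip at -2.84, Hnrnpa3 at -2.25, Hnrnpul1 at -1.97, Hnrnph1 at -1.86, Ptbp1 at -1.74, Raly at -1.61 and Hnrnpdl at -1.49 on the log2 CPM scale. None was more than 1 higher. Hnrnpll, the CD45 splicing regulator, was 0.61 higher and had 115, 140, 152 and 214 counts, and it has no exon overlap on the opposite strand. Of the 11 features opposite the wider list, 0 were more than 1 lower in replicate 4, beside 10.4% of all 3348 scored genes with an exon overlap. With 11 features, 0 is near that share, and nothing is read from it. Taking both lists, 24 hnRNP genes could be scored, and replicate 4 had the lowest CPM in 19 of them, beside 42.9% of all 5463 genes scored. It had the lowest CPM in 7 of the 11 with an exon overlap on the opposite strand, beside 25.4% of all such genes, and in 12 of the 13 without one, beside 70.5%. No test of the hnRNP genes against all genes was made.

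**Figure D4:**
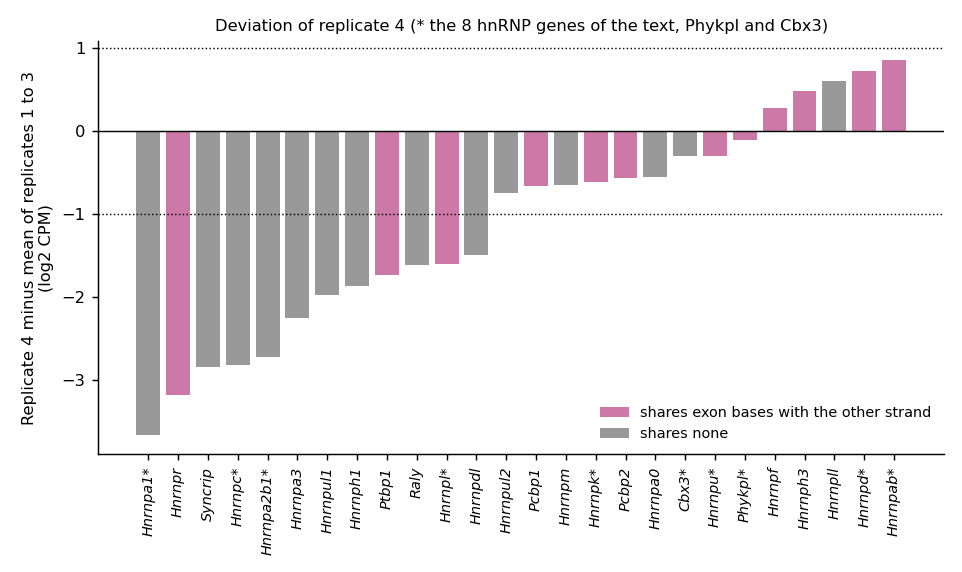
Difference of replicate 4 minus the mean of replicates 1 to 3 in log2 CPM for the hnRNP genes that reached 10 counts in replicates 1 to 3, and for Phykpl and Cbx3. Pink bars are genes with an exon overlap on the opposite strand and grey bars those without one, and dotted lines mark 1 and -1. Values run from -3.66 for Hnrnpa1 to 0.86 for Hnrnpab.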

How the data were processed

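RNA of 4 T-helper 2 libraries was analysed, with groups and replicate numbers from the labels. The deposited values are raw fragment counts per gene, made by the authors with featureCounts 1.4.6-p4 over exons of GENCODE M13, with strand setting 1 and both ends aligned, per the file headers. The aligner version is not given in the sources used here, and the assembly is mm10 per the labels. The headers' command has no option to count fragments that align to several places or lie in several genes of 1 strand. Nothing in the labels or headers states that the strand setting fits the library kit.

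Symbols were matched for 50376 of 50600 IDs, and exons were merged to sum the bases shared between strands. Coding parts and gene types are from GENCODE M21, on the same assembly. TPM was computed from counts and exon length. Levels were tested with limma 3.58.1 on log2(TPM + 0.1), two-sided, and spread with an intercept-only quasi-likelihood fit in edgeR 4.0.16, with TMM factors and robust estimates, each with Benjamini-Hochberg adjustment over all genes tested and a threshold of 0.05. Log2 CPM had a prior of 0.5, and count ratios an added 0.5. DESeq2 1.42.0, R 4.3.3 and Python 3.11.15 were also used.

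The edgeR spread test was settled after 4 forms of it, with or without robust estimates and with the earlier or the adjusted deviance of edgeR, had been run on simulated and on the deposited counts, with an earlier result of these data known. In the simulated counts 200 genes were raised 4-fold in replicate 4, with 1 dispersion for all genes, and 4044 genes were tested. No gene was lowered there, so the finding of genes low in replicate 4 was not tried. Both forms without robust estimates found 0 of the 200. The robust form with the adjusted deviance found 143 and the one reported, with the earlier deviance, found 144, each with 0 false calls. The simulation thus did not separate the robust forms, and the one reported gives the same values as that earlier result. Limits of counts cover counting error only. The genes named, the wider list and the tests were chosen with earlier results of these data known. By the rule for named genes all 10 genes, features that share exon bases, the wider list, and the 3 genes nearest to Phykpl and to Hnrnpab were named. Cbx5 and the pseudogenes were added later. The sum of the B cell marker list is not reported here. Alternatives were other pseudocounts, levels, filters, scalings, tools and limits, and each replicate left out.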

Additional observations from a re-analysis of the deposited data

Results flagged for a closer look

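In log2 CPM 2 of the 14 genes examined had 1 library far from the other 3. Their gap over range was above Dixon's critical value for 4 samples, where chance gives about 1 in 20. The share of all genes above that value was not counted. Replicate 4 was the lowest in CPM in 42.9% of all 5463 genes scored, so nothing particular to the 2 genes is read from it. Hnrnpa1 had a gap of 0.833 of its range, with replicate 4 at 2.13 and the other libraries at 5.51 to 6.19. Rmi1 had a gap of 0.893, with replicate 4 at 1.79 on 7 counts and the others at 2.97 to 3.12.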

How the results depend on the processing

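Of 207 values recomputed, 175 kept their direction and side of the threshold or, for counts and levels, stayed close, among them all 50 mean TPM values. Per exon base the ratio of the opposite feature over the hnRNP gene reversed for Hnrnpu (3.46) and Hnrnpl (1.16). With a level of 5 TPM, 3315 genes were above and 11518 below, against 5523 and 4571 at 1 TPM, and 1 of the 10 genes and 6 of the wider list were below. With a mean count of at least 10, 13 genes were below, since fewer genes were tested. Leaving out each replicate gave 2410 to 2928 genes below. The 1 gene of the wider list below 1 TPM, Ptbp2, was lost (0) with a pseudocount of 0.01, with a mean count of at least 10 and with scaling without CT010467.1 and mitochondrial genes, and 0 to 1 was called with 1 replicate left out. Calls of spread by edgeR, 0 in the table, were 1 with DESeq2 size factors, 345 with no filter (4 of the 10 genes) and 0 to 20 with 1 replicate left out, and DESeq2 gave 27 dispersion outliers. The 20 were called without replicate 4. Of 3 other forms of the edgeR test, added after seeing the data, the robust one with the adjusted deviance called 1 gene, CT010467.1 (smallest adjusted p 0.017, against 0.153 in the form reported), and those without robust estimates called 0. Of neighbouring pairs in the level order, 4 to 7 did not overlap with 1 replicate left out. For replicate 4, 2 of the 8 genes left by the edgeR filter, which drops Hnrnpa1 and Hnrnpc, were more than 1 lower, beside 462 of all 4190 genes. With DESeq2 size factors 4 of 10 were lower and 2 higher, beside 23.1% and 5.11%. With 0.5 as the limit 5 of the 10 were lower and 2 higher, and 13 of the 16 scored in the wider list were lower and 1 higher, beside 36.6% and 8.33% of all genes. Of the features opposite the 10 genes, Rmi1, the 1 that was lower, was not past the limit (0) with DESeq2 size factors, and was not scored (0) with at least 30 counts or the edgeR filter. Except where stated, the cause was not tested. No paired analysis was possible because there was 1 group. Counts near the floor of 3 limit Rmi1, Gm44702, Cbx3 and, in replicate 4, Hnrnpa1, Hnrnpc, Hnrnpr, Syncrip, Ptbp3 and Cbx5.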
